A study of Homo sapiens with 12 samples.

Results

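A group of 5 keratin genes that epidermis switches on at wounds and under stress, KRT6A, KRT6B, KRT6C, KRT16 and KRT17, were followed in cells of head and neck squamous cell carcinoma (HNSCC), untreated or treated with cetuximab. They were chosen by name, as 5 of the 33514 gene symbols in the count matrices, of which 25899 had at least 1 UMI, a captured mRNA molecule. All 5 were among the 17897 genes with enough counts to be tested.

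The data were single-cell RNA-seq (scRNA-seq) counts of 3 established HNSCC cell lines, named SCC1, SCC6 and SCC25. Cultures of a line were given cetuximab, an inhibitory antibody against EGFR (the receptor for epidermal growth factor), at 100 nM every day, or PBS as the untreated control, and cells were collected after 5 days. There were 2 libraries in each of the 6 groups, 12 in all. Each line stands for 1 tumour, and the labels call the libraries of a group duplicates without saying that they were separate cultures, so a p-value here measures the spread between libraries, which may be technical.

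The matrices held 23914 cells, 961 to 2854 in a library, and 57057402 to 112170073 UMIs (unique molecular identifiers, 1 for each captured mRNA molecule) in a library. The median cell had 24078.5 to 54864 UMIs, and the cetuximab-treated SCC6 libraries differed most within a group, at 24078.5 and 50156. Pairs of libraries shared 1 to 13 cell barcodes. Summed levels of 9 squamous epithelial markers were 3812 to 8614 CPM (UMIs of a gene per 1000000 UMIs of the library) in SCC1 and SCC25 and 1042 to 1685 CPM in SCC6, where the defining basal markers KRT5 and KRT14 were at 0.379 to 4.57 CPM. The immune and endothelial marker sums stayed at or under 14.1 and 0.670 CPM. The 8 fibroblast markers summed to more with cetuximab in each line, at 0.957 and 2.98 CPM without and 23.1 and 27.9 CPM with it in SCC6, 7.51 to 8.62 and 17.6 to 18.5 CPM in SCC1, and 21.7 to 39.0 and 45.5 to 81.6 CPM in SCC25. COL1A1, COL3A1 and PDGFRB rose in SCC6, and 2 of the 8, COL1A2 and COL3A1, rose over the lines. The largest part of the sum was COL1A1 in SCC6, COL1A2 in SCC1 and LUM in SCC25. COL1A2 stayed at or under 0.0556 CPM in SCC6 and COL3A1 at or under 0.0526 CPM in SCC1. PDGFRA and THY1 were at most 0.182 and 1.98 CPM in any library. The part of the fibroblast markers in the keratin results was not tested.

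Keratins build the intermediate filaments of epithelial cells and assemble only as pairs of a type I and a type II protein. KRT6A, KRT6B and KRT6C are type II keratins, and KRT16 and KRT17 are the type I keratins they pair with. In skin they are found in hair follicles, nail bed, palm and sole and in the lining of the mouth, they are scarce in resting epidermis between follicles, and keratinocytes at a wound edge or in an inflamed plaque switch them on within hours. Squamous carcinomas often keep them on, and EGFR ligands are known inducers of KRT6 and KRT16 in cultured keratinocytes. Basal keratinocytes carry another pair, KRT5 and KRT14.

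The genes lie in the 2 keratin clusters. On the RefSeq annotation of GRCh38.p14 the type II members follow one another on chromosome 12, with KRT6B at chr12:52446651-52452146, KRT6C at chr12:52468516-52473805 and KRT6A at chr12:52487176-52493257. The type I members are neighbours on chromosome 17, with KRT16 at chr17:41609778-41612767 and KRT17 at chr17:41619442-41624575.

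The KRT6 genes are near copies of each other, which bears on how a read is assigned. Over whole reference transcripts, KRT6A was 95.5% identical to KRT6C and 90.9% identical to KRT6B. Over the last 500 bases, the end that 3′ libraries read, the identity was 89% with KRT6C and 69% with KRT6B. No stretch of 100 bases in those last 500 was shared exactly by any pair of the 3 genes, whereas over whole transcripts 17.7% of the 100-base stretches of KRT6A also occurred in KRT6C. How reads matching several genes were counted is not given in the sources used here. Values of single KRT6 genes are therefore uncertain, most of all the rare KRT6C, and the sum of the 3 was tested beside them. KRT16 was 74% identical to KRT17 and 85% identical to KRT14, and both KRT16 and KRT17 have pseudogenes that may take or lend reads.

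KRT17 was the most abundant of the 5 in every library, and KRT6A came next in each untreated library, at levels that differed between the lines. Since a 3′ library counts each molecule once, CPM can be compared between genes without dividing by length. Untreated SCC25 carried KRT6A at 816 and 1098 CPM, untreated SCC1 at 36.0 and 34.5 CPM, and untreated SCC6 at 19.99 and 15.7 CPM. SCC25 thus stood far above the other lines, with no overlap, a description only, since the share of all genes without overlap was not counted.

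**Figure D1:**
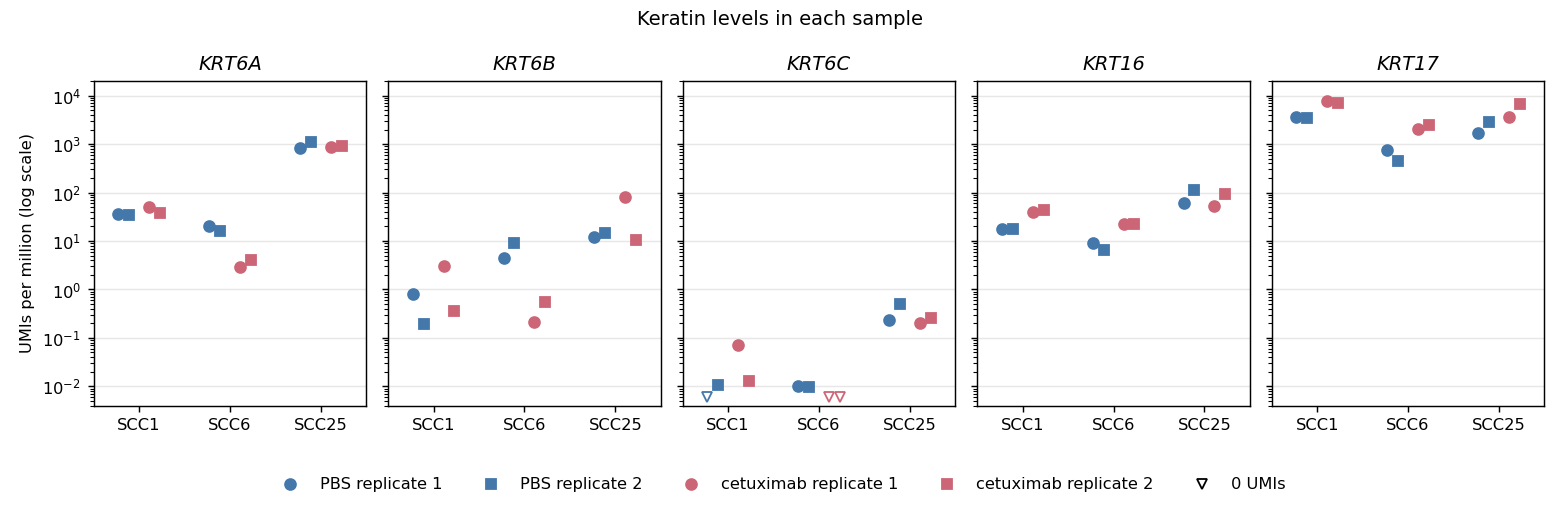
Level of each keratin (CPM, log axis) in every library, by line (x axis) and treatment, blue for PBS and red for cetuximab, circles for replicate 1 and squares for replicate 2, with open triangles for libraries at 0 UMIs. KRT17 sits highest in all 12 libraries, KRT6A is at 816 to 1098 CPM in SCC25 and at most 50.9 CPM elsewhere, and in treated SCC6 the KRT6A and KRT6B points lie below, and the KRT17 points above, those of untreated SCC6.

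With edgeR's quasi-likelihood test and Benjamini-Hochberg adjustment over all genes tested (FDR, called under 0.05), KRT6A was lower than in untreated SCC25 by a log2 difference of −4.96 ± 0.30 (SE) in SCC1 (FDR = 3.04e-06) and −5.60 ± 0.31 in SCC6 (FDR = 1.48e-06). KRT6A differed less between SCC1 and SCC6, by 0.64 ± 0.26 on the log2 scale, and missed the threshold (edgeR FDR = 0.0711). It passed when the replicate number was added as a block (FDR = 0.0450). Between untreated lines this block is 1 term shared by all lines. Pairing by number was examined within lines only, so whether same-numbered libraries of different lines belong together is not known. Summing the 3 KRT6 genes left a log2 difference of 0.20 ± 0.25 between these lines (edgeR FDR = 0.555).

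KRT6B followed another order. It was at 12.01 and 14.3 CPM in untreated SCC25, 4.38 and 9.09 CPM in untreated SCC6, and 0.816 and 0.196 CPM in untreated SCC1. SCC1 was lower than SCC6 by −4.13 ± 1.15 on the log2 scale (edgeR FDR = 0.0159) and lower than SCC25 by −4.98 ± 1.18 (FDR = 0.00742), while SCC6 and SCC25 did not differ beyond the spread (−0.85 ± 0.97, FDR = 0.519). The low level in SCC1 was set by few UMIs, 51 and 18 in its untreated libraries, and the difference from SCC6 lost its call without SCC1 replicate 2 (log2 difference −3.43, edgeR FDR = 0.108) or SCC6 replicate 2 (−3.58, FDR = 0.0612). The difference from SCC25 lost its call without SCC1 replicate 2 (−4.28, edgeR FDR = 0.0622).

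KRT6C was close to the floor of detection. It had 19 and 56 UMIs in untreated SCC25 libraries of 80948957 and 112170073 UMIs, and 0 to 1 UMI in the untreated libraries of the other lines, where 3 UMIs would be 0.0292 to 0.0480 CPM. Untreated SCC25 was called higher than SCC1 (edgeR FDR = 0.00147) and SCC6 (FDR = 0.00194). The size of that difference is not given, because the lower groups lie under the floor.

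KRT16, the usual type I partner of KRT6, followed the order of KRT6A at lower levels. It was at 59.6 and 114 CPM in untreated SCC25, 17.9 and 18.1 CPM in SCC1, and 9.14 and 6.49 CPM in SCC6. Both SCC1 (−2.48 ± 0.38, edgeR FDR = 0.000664) and SCC6 (−3.34 ± 0.40, FDR = 0.000135) were lower than SCC25 on the log2 scale. SCC1 and SCC6 differed by 0.86 ± 0.37, which missed the threshold (FDR = 0.0875) and passed it with the replicate block (FDR = 0.0496).

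KRT17 did not follow that order. It was highest in untreated SCC1, at 3718 and 3465 CPM, intermediate in SCC25, at 1696 and 2885 CPM, and lowest in SCC6, at 770 and 440 CPM. SCC6 was lower than SCC25 (log2 difference −1.78 ± 0.39, edgeR FDR = 0.00482) and SCC1 was higher than SCC6 (2.22 ± 0.40, FDR = 0.00149), but SCC1 and SCC25 did not separate (0.44 ± 0.38, FDR = 0.385).

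Lines differ widely in any case, so these counts have a high background. Of the 5 keratins, 4 were called lower in untreated SCC1 than SCC25, against 40.8% of all genes tested called in either direction and 23.4% called lower. Likewise 4 were called lower in untreated SCC6 than SCC25 (40.9% of all genes called, 22.2% lower), and 2 differed between untreated SCC1 and SCC6 (40.2% of all genes called), or 4 with the replicate block, where 53.8% of all genes were called.

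KRT6A and KRT17 moved in opposite directions when SCC6 was treated with cetuximab. KRT6A was at 19.99 and 15.7 CPM without and 2.92 and 4.01 CPM with cetuximab, a mean of 17.9 ± 3.00 (SD, n = 2) against 3.47 ± 0.771. The groups did not overlap, a description only, since the share of all genes without overlap was not counted. KRT6A fell by 2.60 on the log2 scale (SE 0.27, edgeR FDR = 0.00373). The call held without each of the 12 libraries in turn, at log2 changes of −2.87 to −2.37.

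KRT17 went the other way, from 770 and 440 CPM to 2006 and 2449 CPM. It rose in SCC6 by a log2 change of 1.64 ± 0.39 (edgeR FDR = 0.0463), and by replicate number the log2 change of CPM was 1.38 and 2.48. This call was close to the threshold. It was lost without any 1 of the 8 SCC1 and SCC6 libraries (FDR = 0.0706 to 0.162, log2 change 1.25 to 2.16), when the 5% of cells richest in UMIs were dropped (1.60, FDR = 0.0585) and when the SCC6 libraries were fitted alone (1.66, FDR = 0.0657). It was kept without any 1 of the 4 SCC25 libraries and passed with the replicate block (FDR = 0.00353).

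KRT6B and KRT16 missed the threshold in SCC6 in the main test and passed it with the replicate block, with DESeq2 and without a filter on low counts. The fit to the SCC6 libraries alone called 2 of 4 members tested, KRT6A and KRT6B, both lower, and 265 of 15925 genes. KRT6B was at 4.38 and 9.09 CPM without and 0.211 and 0.545 CPM with cetuximab, a log2 change of −4.34 ± 1.16 (edgeR FDR = 0.0687, with the replicate block 0.00819, without SCC25 treated replicate 1 or 2 0.0372 or 0.0377). KRT16 was at 9.14 and 6.49 CPM without and 22.2 and 22.6 CPM with cetuximab, a log2 change of 1.28 ± 0.37 (FDR = 0.0871, with the block 0.00274). Neither gene's groups overlapped, again a description only. KRT6C had 1 UMI in each untreated and 0 in each treated SCC6 library, where 0 allows up to 0.0395 and 0.0333 CPM, so no change was detectable at this depth.

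Summing the KRT6 genes removes the question of how reads were split among them. The sum was 24.6 ± 0.320 CPM (SD, n = 2) in untreated and 3.84 ± 1.01 CPM in treated SCC6, and fell by 2.90 on the log2 scale (SE 0.27, edgeR FDR = 0.00193). In SCC6 the edgeR test thus called 2 of 5 members, 1 higher and 1 lower, against 3.81% of all genes tested (2.51% higher, 1.3% lower). It called 4 of 5 with the replicate block, where 20.1% of all genes were called, and 4 of 5 without a filter on low counts (4.76% of genes), as did DESeq2 (9.28% of genes). With the KRT6 genes summed it called 3.81% of genes.

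**Figure D2:**
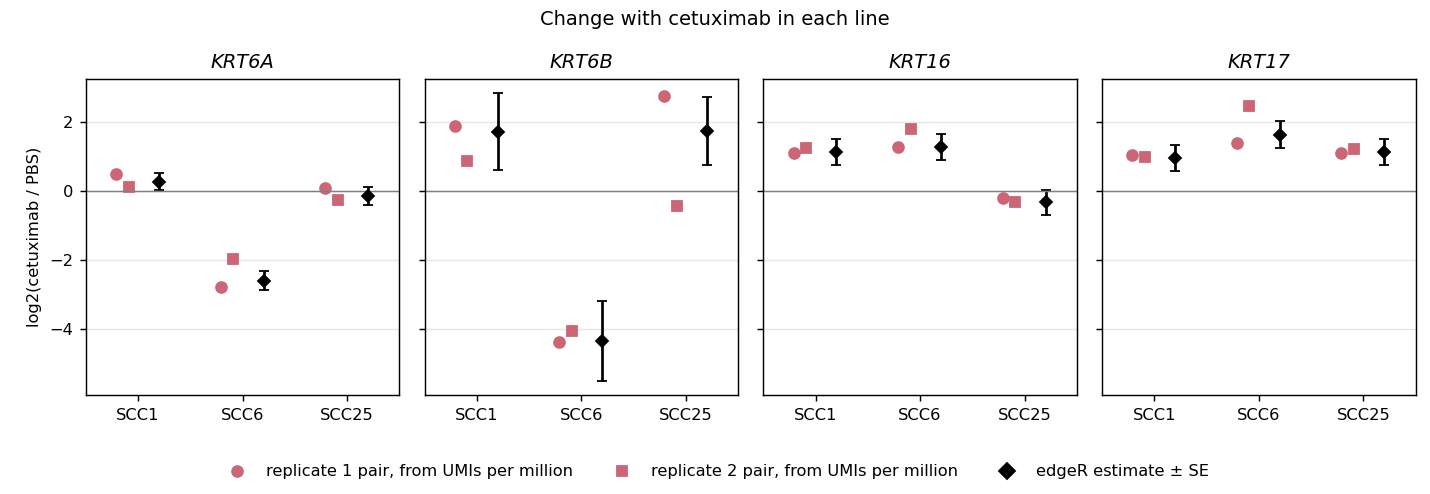
Log2 change with cetuximab of KRT6A, KRT6B, KRT16 and KRT17 in each line, as the edgeR estimate (black diamond, bars for the standard error) beside the 2 replicate pairs (red points, from CPM). KRT17 lies above 0 in all 6 pairs, KRT16 above 0 in SCC1 and SCC6 and below 0 in SCC25, and KRT6A far below 0 only in SCC6.

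In SCC1, KRT6A, KRT16 and KRT17 were each higher in both treated libraries than in either untreated library. This is a description only, since the share of all genes without overlap was not counted. KRT16 was at 17.9 and 18.1 CPM without and 38.8 and 42.9 CPM with cetuximab. The log2 change of 1.13 ± 0.37 missed the threshold (edgeR FDR = 0.380) and passed it with the replicate block (FDR = 0.0143). KRT17 was at 3718 and 3465 CPM without and 7607 and 6907 CPM with cetuximab (0.97 ± 0.38, FDR = 0.497, with the block 0.0543).

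The type II keratins of SCC1 did not pass with or without the block. KRT6A was at 36.0 and 34.5 CPM without and 50.9 and 37.6 CPM with cetuximab (0.28 ± 0.26, edgeR FDR = 0.890), a smaller gap than those of KRT16 and KRT17. KRT6B was at 0.816 and 0.196 CPM without and 3.00 and 0.355 CPM with cetuximab, so that treated replicate 1 alone lay above the rest; the log2 change of 1.72 ± 1.11 became −0.46 without it. KRT6C had 0 and 1 UMI without and 4 and 1 UMI with cetuximab.

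Of the 5, edgeR called 0 in SCC1, where 0.0168% of all genes were called. KRT16 and KRT17 had an unadjusted p under 0.05, as had 1570 of all genes, DESeq2 called 0 of the 5 and 1.51% of all genes, and the replicate block called 1 (KRT16), where 4.45% of all genes were called.

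In SCC25, KRT17 was higher in both treated libraries than in either untreated library, again a description only. It was at 1696 and 2885 CPM without and 3623 and 6769 CPM with cetuximab, a log2 change of 1.14 ± 0.38 (edgeR FDR = 0.675, with the block 0.0725). Replicate 2 was higher than replicate 1 in both groups, and the log2 change of CPM by replicate number was 1.10 and 1.23.

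KRT6A, abundant in this line, was at 816 and 1098 CPM without and 872 and 910 CPM with cetuximab, with treated libraries inside the untreated range (−0.14 ± 0.25, edgeR FDR = 1). KRT16 was at 59.6 and 114 CPM without and 51.9 and 92.0 CPM with cetuximab (−0.32 ± 0.36, FDR = 1). KRT6C was at 0.235 and 0.499 CPM without and 0.204 and 0.258 CPM with cetuximab, with groups that overlapped.

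KRT6B separated one SCC25 library from the other 3. It was at 12.01 and 14.3 CPM in the untreated libraries, 80.8 CPM in treated replicate 1 and 10.6 CPM in treated replicate 2. The log2 change of 1.75 ± 0.98 (edgeR FDR = 0.929) became −0.32 without treated replicate 1. Of the KRT6 UMIs in that library 8.48% were KRT6B (exact Clopper-Pearson 95% interval 8.30 to 8.67%), against 1.16 to 1.45% in the other SCC25 libraries. These intervals cover counting error only. The same library stood apart in the summed level of a list of 30 keratinocyte activation genes, at 1302 CPM against 368, 517 and 392 CPM in the other 3, and SCC1 treated replicate 1, the SCC1 library highest in KRT6B, had 1673 CPM against 905, 950 and 702 CPM. In untreated SCC6 the order was reversed, with replicate 2 higher in KRT6B (9.09 against 4.38 CPM) and lower in the list sum (1375 against 2239 CPM). In treated SCC6 replicate 2 was higher in both, at 0.545 against 0.211 CPM of KRT6B and 654 against 559 CPM of the list. The part of the list genes in the KRT6B values was not tested.

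Of the 5, edgeR called 0 in SCC25, where it called 0% of all genes. KRT17 had an unadjusted p under 0.05, as had 1041 of all genes, and DESeq2 and the replicate block called 0 of the 5, where they called 0.564 and 0.978% of all genes.

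Over the 3 lines together, with a term for line, KRT17 was the member that rose, beside the higher fibroblast marker sums given above, whose part was not tested. It was higher with cetuximab in 6 of 6 replicate pairs, by a log2 change of 1.25 ± 0.22 (edgeR FDR = 0.0149), and the call held without each library in turn (1.10 to 1.38, FDR = 0.00872 to 0.0378). KRT16 had a log2 change of 0.71 ± 0.29 and missed the threshold (FDR = 0.187); without SCC25 untreated replicate 2, its highest library, it passed (0.96, FDR = 0.0317). KRT6A (−0.76 ± 0.41, FDR = 0.319) and KRT6B (0.19 ± 1.16, FDR = 0.953) did not pass. This made 1 of 5 members called, higher, against 3.67% of all genes (2.53% higher); with the replicate block it was 1 of 5 against 11.6%.

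Whether a keratin's change differed between the lines was tested as an interaction. The main test called 0 of 5 members and 0% of all genes, although 1318 genes had an unadjusted p under 0.05, and KRT6A reached an edgeR FDR of 0.145. DESeq2 called 1.6% of all genes and 1 of the 5, KRT6A (adjusted p = 5.33e-09), and edgeR without a filter on low counts called 2 of the 5, KRT6A and KRT6B, and 0.958% of genes. With the replicate block, where 1.29% of all genes were called, edgeR called 2 of the 5, KRT6A (FDR = 0.0191) and KRT16 (FDR = 0.0312).

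By pairs of lines, the KRT6A change in SCC6 was lower than in SCC1 by −2.87 ± 0.37 on the log2 scale (edgeR FDR = 0.0594, with the replicate block 0.0128) and lower than in SCC25 by −2.46 ± 0.37 (FDR = 0.166, with the block 0.0251). For the summed KRT6 genes the difference between SCC6 and SCC1 passed without a block (−3.22 ± 0.36, FDR = 0.0449), where 0.0112% of all genes passed. The KRT16 change was higher in SCC6 than in SCC25 by 1.60 ± 0.52 (FDR = 0.434, with the block 0.0336). With the block, 1.67% of all genes passed for SCC6 against SCC1 and 0.609% for SCC6 against SCC25. For KRT17 no difference between lines was found (FDR = 1, with the block 0.380).

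Because the members work as type I and type II pairs, the balance of both types was computed as (KRT16 + KRT17 UMIs) over (KRT6A + KRT6B + KRT6C UMIs), a value that does not depend on how reads were split among the KRT6 genes. In SCC6 there were 31.9 and 18.0 type I UMIs for each type II UMI without cetuximab, and 648 and 543 with it. In SCC1 the values were 101 and 100 without and 142 and 183 with cetuximab, and in SCC25 they were 2.12 and 2.70 without and 3.86 and 7.45 with cetuximab. The balance was higher with cetuximab in 6 of 6 pairs, with no overlap in any line. Nearly all type I UMIs were those of KRT17. The mean KRT6 sum was 35.8 CPM without and 46.0 CPM with cetuximab in SCC1, and 970 and 937 CPM in SCC25. In SCC1 and SCC25 the higher balance is thus largely the higher KRT17 level given above. On the log2 scale the mean difference came to 4.63 for SCC6, 1.17 for SCC25 and 0.67 for SCC1. The transcripts of KRT6 lay in few SCC6 cells, and the balance in the median cell, with 1 UMI added to each type, was 12 and 7.5 without and 29 and 80 with cetuximab in SCC6, a smaller shift than that of the summed UMIs. In the median cell of SCC1 it was 92.5 and 107 without and 203 and 217 with cetuximab, and in SCC25 1.65 and 2.74 without and 3.34 and 9.30 with cetuximab, higher in 6 of 6 pairs. Most SCC1 and SCC6 cells had no KRT6A UMI, such as 933 of 1263 and 2097 of 2731 cells in untreated replicate 1. In those 2 lines the median-cell value thus largely follows the KRT17 count and the depth of the cell, which was not evened out. It is no separate measure of the balance there. Other type II partners, such as KRT5 and KRT8, are not in this ratio.

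**Figure D3:**
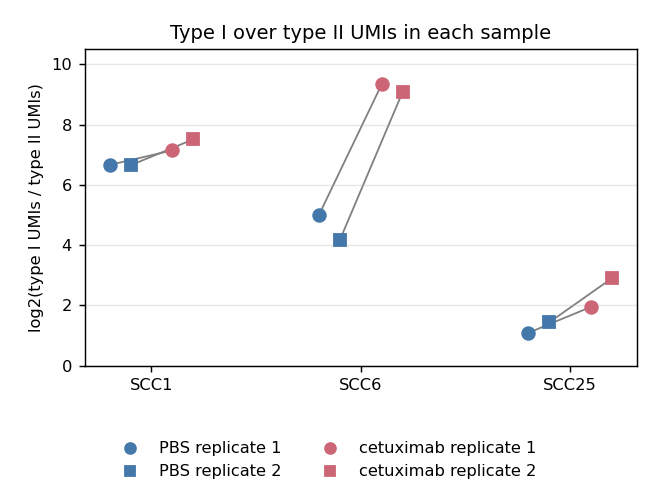
Log2 of type I (KRT16 and KRT17) over type II (KRT6A, KRT6B and KRT6C) UMIs in each library, with replicate pairs joined by lines. All 6 pairs rise from untreated to cetuximab, by 4.34 and 4.92 in SCC6, 0.48 and 0.87 in SCC1 and 0.86 and 1.47 in SCC25.

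The summed counts hide how the transcripts were spread over cells. To compare cells at one depth, each cell was taken at 15000 UMIs, computed as the expected value of drawing that many, and the 0.847 to 9.18% of cells in a library with fewer were left out, most of them in treated SCC6 replicate 1. Genes that these cells should lack (PTPRC, CD3E, ALB and HBB) had a UMI in at most 0.173% of cells at that depth.

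KRT17 was a keratin of nearly every cell, and KRT6A was so only in SCC25. At 15000 UMIs, 98.4 and 97.5% of untreated SCC25 cells had a KRT6A UMI, against 15.3 and 15.3% in SCC1 and 13.7 and 10.6% in SCC6. KRT16 was found in 33.8 and 46.8% of untreated SCC25 cells, 17.4 and 21.5% in SCC1 and 9.53 and 7.18% in SCC6. A KRT17 UMI was found in 92.0 and 82.2% of untreated SCC6 cells and in at least 99.48% of cells in each library of the other lines. All of these shares lie above the background genes.

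With cetuximab the SCC6 cells with a KRT6A UMI were 2.22 and 3.10%, and the KRT6B share was 0.264 and 0.719% against 5.02 and 8.74% without. At full depth, the KRT6A shares in SCC6 were 23.2 and 19.95% without and 3.64 and 8.11% with cetuximab. In SCC25 the treated cells with a KRT6A UMI stayed at 96.7 and 90.7%, and in SCC1 they were 18.0 and 11.7%.

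For KRT17 the middle of the distribution moved, not a few cells. Its median per cell at 15000 UMIs was 7.07 and 3.70 UMIs in untreated and 18.6 and 26.1 in treated SCC6, 41.1 and 42.8 against 85.0 and 79.3 in SCC1, and 13.9 and 30.8 against 36.1 and 85.0 in SCC25. Drawn at random, a treated cell had more KRT17 than an untreated cell of the same replicate number in 76.2 and 74.4% of draws for SCC1, 74.5 and 87.4% for SCC6 and 73.4 and 76.7% for SCC25. The cells lowest in KRT17 moved as well in SCC6, with the 10th percentile at 0.953 and 0.302 UMIs without and 4.56 and 4.44 UMIs with cetuximab.

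**Figure D4:**
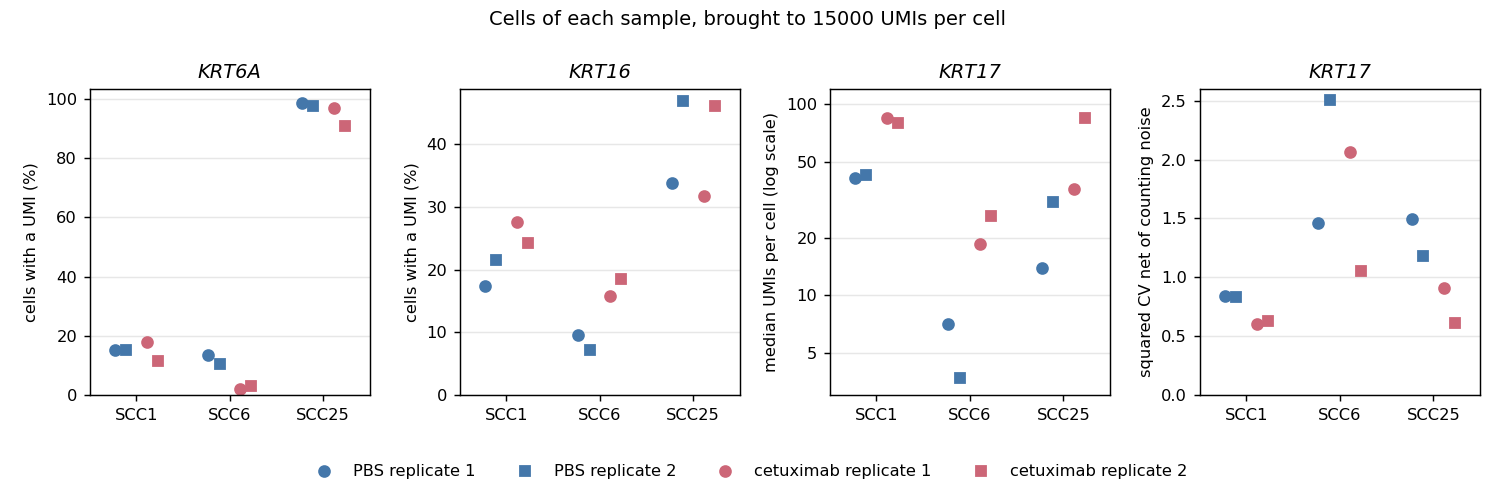
Cell measures at 15000 UMIs per cell by line, 1 point per library (blue PBS, red cetuximab): percent of cells with a KRT6A or KRT16 UMI, median KRT17 UMIs per cell (log axis) and the squared coefficient of variation of KRT17 net of counting noise, described further on. KRT6A is in 90.7 to 98.4% of SCC25 cells and 2.22 to 18.0% of SCC1 and SCC6 cells, and the KRT17 median is higher with cetuximab in all 6 pairs.

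Whether the share of cells changed over the lines was tested for KRT6A, KRT16 and KRT17 by an exact two-sided permutation test within lines, whose smallest possible p is 0.00926; the 3 p-values are unadjusted, so none of these differences is called. The KRT17 share was higher by 3.98 percentage points with cetuximab and in 6 of 6 pairs (exact permutation p = 0.0370), most of it in SCC6, since the other lines were near 100% already. Without thinning it was higher by 1.93 points on average but in only 2 of 6 pairs (exact permutation p = 0.278). Leaving out 1 library gave differences of 2.35 to 5.62 points. The KRT6A share differed by −4.71 points (exact permutation p = 0.0648), by −5.77 points without SCC1 treated replicate 1 (exact permutation p = 0.00926, the smallest possible there) and by −5.71 points without SCC25 treated replicate 1 (exact permutation p = 0.0278). The KRT16 share differed by 4.61 points (exact permutation p = 0.213).

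Cell-to-cell spread was measured as the squared coefficient of variation net of counting noise, which is 0 when cells differ by counting alone. KRT6A was among the most uneven genes of SCC1 and SCC6. Its spread was 17.3 and 21.5 in untreated SCC1, 10.3 and 20.8 in untreated SCC6, and 0.771 and 1.37 in untreated SCC25, where the median over genes of at least 10 CPM was 0.128 to 0.213 in the 12 libraries. KRT6A exceeded at least 91.6% of those genes in each library, although in treated SCC6 it was itself under 10 CPM, at 2.92 and 4.01. In the 10% of cells richest in it lay 88.7 and 87.5% of the KRT6A UMIs of untreated SCC1, against 31.2 and 37.0% in untreated SCC25.

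KRT17 was more even, with 27.1 to 44.2% of its UMIs in the richest 10% of cells, although its spread still exceeded that of at least 83.4% of genes. Its spread was 0.846 and 0.832 in untreated and 0.601 and 0.627 in treated SCC1, 1.46 and 2.504 against 2.06 and 1.05 in SCC6, and 1.496 and 1.18 against 0.913 and 0.610 in SCC25. It was lower with cetuximab in 5 of 6 pairs, by 0.408 on average, and did not pass (unadjusted exact permutation p = 0.130).

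With cetuximab, KRT6A had spreads of 12.9 and 53.6 in SCC1 libraries, 52.8 and 28.7 in SCC6 libraries and 0.825 and 1.88 in SCC25 libraries. The treated SCC6 values rest on 222 and 361 KRT6A UMIs, of which 41.4 and 53.7% lay in 8 and 12 cells. The mean difference of 13.1 did not pass (unadjusted exact permutation p = 0.176; without SCC1 treated replicate 1 it was 19.9, exact permutation p = 0.0185), nor did that of KRT16, 2.96 (p = 0.722 by the same exact test). In single SCC1 cells KRT6A reached 160 and 165 UMIs without and 146 and 260 UMIs with cetuximab.

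Within a library, cells rich in one member tended to be rich in the others, from weakly to moderately. Spearman's rho over cells, a description over 12 libraries whose cells share depth and handling, was 0.092 to 0.505 for KRT6A with KRT17, 0.039 to 0.477 for KRT6A with KRT16, and 0.133 to 0.373 for KRT16 with KRT17. Sparse counts lower rho. With counting noise taken out, r was 0.113 to 0.548, 0.047 to 0.627 and 0.191 to 0.414 for the same pairs. In SCC25, KRT6A followed the summed basal keratins KRT5, KRT14 and KRT15 most closely, with rho of 0.712 and 0.721 without and 0.760 and 0.677 with cetuximab, against 0.048 to 0.283 in the other lines, where KRT6A was sparse. Net of counting noise, r was 0.766 to 0.814 in SCC25 and 0.044 to 0.370 in the other lines. KRT17 ran against 20 proliferation genes in all 12 libraries, with rho from −0.452 to −0.0689, as did KRT16, from −0.275 to −0.0451.

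The KRT6A-rich cells of SCC1 were a small set that carried most of its transcripts. Cells with at least 5 KRT6A UMIs numbered 87, 113, 102 and 83 in the 4 SCC1 libraries, 6.01 to 10.6% of cells, and held 80.9 to 89.1% of the KRT6A UMIs. They were set beside cells with none, a choice made after the values were seen, so these are descriptions without a test. Their median depth was 49340 to 59754.5 UMIs, against 45122 to 52798.5 in cells without KRT6A.

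The 12 genes ranked first in those cells, by their lowest ratio in the 4 libraries, were SLPI, GJB2, LY6D, KRTDAP, HES2, S100A9, PI3, FABP5, GJB6, CYP1B1, KRT5 and CYP1A1. On the log2 scale of CPM + 5, over the 4 libraries, the secreted protease inhibitors SLPI and PI3 (elafin) were higher by 2.39 to 2.66 and 1.70 to 3.16, and the connexins GJB2 and GJB6 by 2.33 to 3.13 and 1.63 to 2.55. The keratinocyte differentiation marker KRTDAP was higher by 1.92 to 3.42 and the calprotectin subunit S100A9 by 1.72 to 3.58. The cytochrome P450 genes CYP1B1 and CYP1A1 were higher by 1.59 to 2.17 and 1.54 to 2.24, and the fatty acid binding protein gene FABP5 by 1.64 to 1.96. The cornified envelope precursor IVL, added for comparison, ranked only 369. It was higher by 0.15 to 1.87, at low levels of 0.857 to 14.8 CPM in the KRT6A-rich cells. Of the keratins, KRT5 was higher by 1.56 to 1.91, KRT16 by 1.03 to 1.63, KRT17 by 0.65 to 1.31 and KRT14 by 0.14 to 1.06, whereas the proliferation marker MKI67 was lower, at −0.66 to −0.35.

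**Figure D5:**
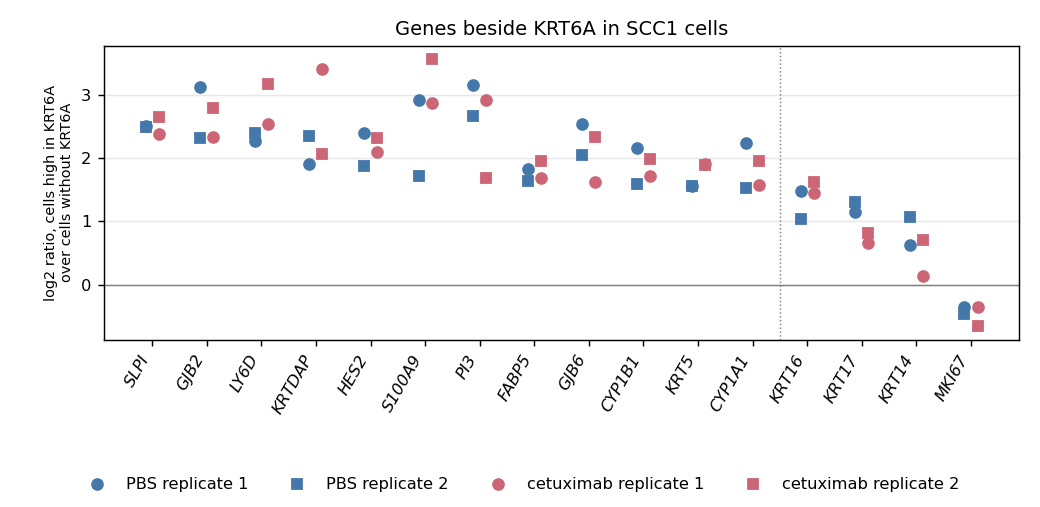
Log2 ratio (CPM + 5) of genes in cells with at least 5 KRT6A UMIs over cells with none, 1 point for each of the 4 SCC1 libraries (blue PBS, red cetuximab). The 12 genes left of the dotted line have the highest lowest ratio of the 4, led by SLPI and GJB2, and the 4 on the right were added for comparison, with MKI67 below 0 in every library.

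The KRT6A-rich cells of untreated SCC6 were led by other genes. They numbered 107 and 76, held 57.7 and 58.0% of the KRT6A UMIs, and were deeper than cells without KRT6A, at medians of 44293 and 50086 UMIs against 30425 and 36772. The collagenase MMP1 was higher by 2.18 and 2.62 on the same log2 scale, the calcium-binding S100A2 by 2.31 and 1.64, KRT6B by 1.84 and 2.34, the hormone gene PTHLH by 1.85 and 1.73, the hemidesmosome collagen COL17A1 by 1.35 and 1.58 and KRT17 by 0.95 and 1.08. In treated SCC6 just 8 and 12 cells had 5 or more KRT6A UMIs.

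Genes tied to these keratins in keratinocyte biology were counted in lists beside the members, each against a median log2 change of 0 over all genes in SCC6. Of all genes tested in SCC6, the main test called 3.81% (2.51% higher, 1.3% lower) and the replicate block 20.1%. Of 28 tested keratinocyte activation genes, 4 fell and 1 rose in SCC6, with a list median of −1.32. The cytokine IL1B fell by 2.53 (SE 0.57, edgeR FDR = 0.0406). The other called genes, named after their values were seen, were S100A7, IL1RN and SERPINB3, which fell, and the cross-linking enzyme TGM1, which rose. The replicate block called 10 of the 28 lower and 2 higher. The IL1B call was lost without any 1 of 7 libraries (log2 change −2.87 to −2.12, FDR up to 0.294).

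Among 17 genes known as readouts of EGFR signalling, 5 fell and 0 rose in SCC6, with a median of −1.65. The EGFR ligand genes AREG (−4.53, edgeR FDR = 0.0162), EREG (−3.38, FDR = 0.0144) and HBEGF (−3.19, FDR = 0.0481, with the replicate block 0.0516) and the signalling readout PHLDA1 (−3.81, FDR = 0.0113) were among them. The fifth, DUSP4, a MAP kinase phosphatase, was named after its value was seen. Without SCC6 untreated replicate 1 or treated replicate 1, AREG (−2.999, FDR = 0.104, and −3.92, FDR = 0.119), EREG (−2.75, FDR = 0.113, and −2.83, FDR = 0.101), PHLDA1 (−2.35, FDR = 0.0623, and −3.52, FDR = 0.119) and HBEGF (−1.34, FDR = 0.383, and −2.68, FDR = 0.324) lost their calls. HBEGF lost it without any 1 of 9 libraries, and AREG (FDR = 0.0555) and HBEGF (FDR = 0.120) also lost it when SCC6 was fitted alone. The replicate block called 8 of the 17 lower.

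Among 21 transcription factors known to act on keratin promoters, 3 fell and 1 rose in SCC6, with a median of −0.23. The AP-1 subunit gene FOSL1 fell by 2.97 on the log2 scale (edgeR FDR = 0.0456), KLF5 by 1.38 (FDR = 0.0474) and CEBPB by 0.92 (FDR = 0.0414). The one that rose, GLI2, a mediator of hedgehog signalling, was named after its value was seen. The 3 falls were near the threshold. FOSL1, KLF5 and CEBPB lost their calls without any 1 of 6, 7 and 9 libraries (FDR up to 0.282, 0.318 and 0.287), the 4 SCC1 libraries and replicate 1 of both SCC6 groups among them, and when SCC6 was fitted alone (FDR = 0.0984, 0.0808 and 0.163). With the replicate block, 3 fell and 2 rose, which is near the share of all genes called by it.

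No gene passed the main edgeR test in SCC6 among 17 desmosome and hemidesmosome genes, to which keratin filaments attach (median 0.20), 20 proliferation genes (median −0.44), 3 basal keratins, 4 simple epithelial keratins or 7 suprabasal keratins. The basal pair KRT5 and KRT14 had log2 changes of 1.59 ± 0.48 and 1.57 ± 0.43 there (edgeR FDR = 0.0974 and 0.0772, with the replicate block 0.00118 and 0.000998), at levels of a few CPM. The replicate block, which called 20.1% of all genes in SCC6, called more listed genes there. They were 5 desmosome and hemidesmosome genes higher and 1 lower, 5 of 20 proliferation genes lower and 2 of 4 simple keratins lower. Of 3 basal keratins 2 were higher and 1 lower, and 0 suprabasal keratins were called. The proliferation count was near the share of all genes.

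In SCC1 and SCC25 no listed gene passed the main test, which called 0.0168 and 0% of all genes there. The replicate block called 4.45% of all genes in SCC1 and 0.978% in SCC25. With the replicate block, 14 of 20 proliferation genes were lower in SCC1 (list median −1.11), with 1 basal, 2 simple and 1 suprabasal keratin, 1 activation gene and 1 keratin promoter factor higher and 1 EGFR readout lower. In SCC25 the block called 1 simple and 1 suprabasal keratin higher, and 1 basal keratin, 2 suprabasal keratins and 1 activation gene lower, and 0 of the 20 proliferation genes.

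Over the 3 lines, the main test called 3.67% of all genes and the replicate block 11.6%. In the main test 2 of 7 suprabasal and related keratins rose with KRT17. They were KRT80 (0.91 ± 0.19, edgeR FDR = 0.0243) and, named after its value was seen, the follicle keratin KRT75 (2.01 ± 0.41, FDR = 0.0244), whose level was in practice that of SCC25, 6.84 and 9.99 CPM without and 33.8 and 55.2 CPM with cetuximab, with at most 15 UMIs in any library of the other lines. EREG fell by 1.96 (SE 0.45, edgeR FDR = 0.0354), as did 2 of 28 activation genes, SERPINB3 and SERPINB4, and 1 of 20 proliferation genes, BUB1, the last 3 named after their values were seen. None of the desmosome or keratin promoter factor genes passed over the lines in that test. With the replicate block, 15 of 20 proliferation genes were lower over the lines (list median −0.63), 2 of 17 desmosome and hemidesmosome genes higher, 2 activation genes higher and 2 lower, 1 simple and 1 suprabasal keratin lower, 2 suprabasal keratins higher, 1 EGFR readout lower and 0 keratin promoter factors called. The unblocked calls of KRT80 and EREG were lost without any 1 of 4 and 7 libraries (FDR up to 0.0716 and 0.103).

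The genes whose levels ran most like each member were ranked among 3760 genes of at least 50 CPM in some group, as Pearson's r over the 12 libraries, which share lines and treatments. After taking out line means, KRT17 ran most closely with CLIC3 (r = 0.971), TGIF1 (0.960) and DNAJB2 (0.958), KRT16 with KRT14 (0.952), ARID5B (0.936) and NSG1 (0.921), and KRT6A with SAT1 (0.952), CYSTM1 (0.939) and TSPAN15 (0.931). On the same scale KRT16 and KRT17 had r = 0.814, and KRT6A had r = −0.583 with KRT17 and −0.518 with KRT16. Without taking out line means, the nearest genes were ESRRA for KRT6A (0.993), GSTM4 for KRT16 (0.949) and F11R for KRT17 (0.962).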

How the data were processed

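Single-cell libraries were made with the 10x Chromium 3′ v2 kit, and the deposited tables are, per the labels, the authors' UMI counts per gene and cell, 1 matrix for each line (unit counts). The submitters' processing notes name Cell Ranger and GRCh38; cell filters and the treatment of reads shared by genes are not given in the sources used here. Other deposited columns, used to assign cells to libraries, came with the tables per the file headers. All deposited cells were used and no doublet caller was run. Every sample column was mapped.

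Counts were summed per library (12 libraries, 2 in each of 6 groups). edgeR 4.0.16 (R 4.3.3, limma 3.58.1) fitted a mean for each group with TMM scaling and filterByExpr, and its quasi-likelihood test was adjusted by Benjamini-Hochberg over 17897 genes, with a threshold of 0.05. A fit with line plus treatment gave the change over the lines, and interaction terms gave differences between lines. Rows with the same symbol were added. Cell measures used the exact moments of drawing 15000 UMIs per cell (Python 3.11.15, numpy 2.4.6, scipy 1.17.1, pandas 2.3.3) and exact permutation tests within lines. Depth was 57057402 to 112170073 UMIs per library, where 3 UMIs are 0.0267 to 0.0526 CPM. Statistics were tested on simulated data first.

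Same-numbered libraries deviated together from their group means, with Pearson r across genes of 0.377 in SCC1, 0.349 in SCC6 and 0.598 in SCC25. Among 2737 genes with a mean of at least 50 CPM, r was 0.641, 0.654 and 0.683. The replicate numbers, which come from the sample titles, were therefore taken to pair libraries. The main edgeR fit and the exact permutation tests left this pairing out. Of the tests, only the replicate block used it, with a term for each line and number in the tests of cetuximab. Between untreated lines the block was 1 term for the number, shared by all lines, although pairing across lines was not examined. Alternatives were RLE scaling, no low-count filter, DESeq2 1.42.0, the replicate block, leaving out each library, leaving out cells with the most UMIs or over 20% mitochondrial UMIs, summing the KRT6 genes and fitting lines alone. Besides the 5 keratins, up to 4 genes per list were named, those of largest log2 change among the called genes of at least 50 CPM, and exceptions are marked. Members and gene lists were chosen with earlier results of these data known. Reference transcripts were compared by alignment, and no sequences of the keratins are printed.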

Additional observations from a re-analysis of the deposited data

Results flagged for a closer look

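A test of the difference between lines set off 2 keratins, in both cases with the replicate numbers as a block. The change of KRT6A with cetuximab differed over the 3 lines (edgeR interaction, FDR = 0.0191). In the main fit, without the block, its log2 changes were −2.60 for SCC6, 0.28 for SCC1 and −0.14 for SCC25. The change of KRT16 differed as well (edgeR interaction with the block, FDR = 0.0312), with main-fit log2 changes of 1.28 for SCC6, 1.13 for SCC1 and −0.32 for SCC25. In the main edgeR test, without the block, neither passed (FDR = 0.145 and 0.559), while KRT6A passed with DESeq2 (adjusted p = 5.33e-09), and edgeR without a filter on low counts called KRT6A and KRT6B. The cause was not tested.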

How the results depend on the processing

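The fall of KRT6A in SCC6 and the rise of KRT17 over the lines were called under every alternative that was run. The number of the 5 keratins called in SCC6, 2 in the main test, was 4 without a count filter, 4 with DESeq2, 4 with the replicate block and 1 without the 5% of cells with most UMIs. With the replicate block it was 1 in SCC1, 2 for the interaction and 4 between untreated SCC1 and SCC6, and the block changed no call of a member other than those given above. The interaction gave 2 without a filter and 1 with DESeq2. Summing the KRT6 genes gave 1 between untreated SCC1 and SCC6 and 2 between untreated SCC1 and SCC25, where fewer features were tested. Over all genes, the calls were 682 in SCC6 against 1233 without a filter, 1660 with DESeq2 and 3589 with the block, 3 in SCC1 against 243, 271 and 797, 0 in SCC25 against 128, 101 and 175, 656 over the lines against 1043, 1771 and 2073, and 0 for the interaction against 248, 287 and 230. Leaving out 1 library gave 11 to 749 calls in SCC6, 11 without its untreated replicate 1 and 61 without its treated replicate 1, and 202 to 596 over the lines; the fit to SCC6 alone gave 265. The KRT6B change over the lines was −0.50 with the block against 0.19 without. The KRT16 spread difference was −2.33 at 7500 UMIs and −2.35 without thinning, the KRT17 share difference was 1.93 points without thinning, and the balance of types differed by 4.63 in SCC6 alone. Leaving out 1 library gave 1 to 3 members called in SCC6, 1 to 2 over the lines, 1 to 3 between untreated SCC1 and SCC6 and 3 to 4 between untreated SCC1 and SCC25. It gave spread differences of 6.34 to 19.9 for KRT6A and −1.15 to 7.06 for KRT16, share differences of −5.77 to −3.65 points for KRT6A and 2.35 to 5.62 for KRT17, and log2 changes of −0.46 to 2.93 for KRT6B in SCC1, −0.32 to 2.57 for KRT6B, −1.19 to 0.010 for KRT6C, −0.39 to 0.15 for KRT6A and −0.80 to 0.30 for KRT16 in SCC25, and −0.91 to 0.95 for KRT6B and −0.75 to 0.25 for KRT6C over the lines. The cause was not tested. With 2 libraries in a group, and under 100 UMIs of KRT6C in any library, changes of the rarest member could not be resolved.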
